A study of Mus musculus with 9 samples.

Results

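Canonical NF-kB signalling and the tumour necrosis factor (TNF) system that drives it are described here through 10 mouse genes: Tnf, its receptors Tnfrsf1a and Tnfrsf1b, the transcription factor subunits Nfkb1 and Rela, the inhibitors Nfkbia and Nfkbie, the nuclear cofactor Bcl3, and Tnfaip3 and Birc3. Each symbol was matched to 1 row of a gene table with 45904 Ensembl identifiers, of which 17601 were tested. All 10 genes passed the filter on low values. The RNA came from whole dorsal root ganglia, the clusters of sensory neurons beside the spinal cord, at the levels that feed the sciatic nerve of C57BL/6 mice. Young sham mice were 8 to 10 weeks old and had sham surgery. Aged sham mice were 20 to 22 months old and had the same sham surgery, and aged injury mice, of that same older age, had an injury of the sciatic nerve. All ganglia were taken 24 hours after surgery, and the 3 groups had 3 libraries each, with ganglia of 2 mice pooled in each library. The labels do not say whether the pools of a group were prepared separately, so p-values measure the spread between these libraries.

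TNF is a secreted cytokine that binds a receptor with a death domain, TNFR1, on most cells, and a second receptor, TNFR2, found mainly on immune, glial and endothelial cells. In resting cells, inhibitor proteins of the IkB family hold the p50 and p65 subunits of NF-kB in the cytoplasm. Receptor signalling leads to the breakdown of the inhibitors, and NF-kB then enters the nucleus and switches on genes that include those of its own inhibitors, which ends the signal. In dorsal root ganglia the pathway is known from work on inflammatory pain and on the response of neurons, glia and macrophages to a nerve lesion.

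NF-kB binds short DNA sequences that begin with G and end with C bases, and the promoters of several inhibitors are textbook targets. RefSeq promoter sequences (GRCm38.p6, from 250 bases before to 50 bases after the start of the gene) were found for 9 of the 10 genes. They gave 10 windows, since Tnfaip3 has 2. The loose pattern GGGNNNNNCC, read on both strands, was present in all 10 windows and in 50.8% of the 32851 promoter windows of all genes. The degenerate NF-kB consensus, a stricter case of that pattern also read on both strands, was present in 4 of the 10 windows and in 8.5% of all windows. Its matches lay in the promoters of Nfkbia, Nfkbie, Bcl3 and, at 2 places in 1 window, Tnfaip3. All consensus matches in these windows are shown, with the 10 matching bases in capitals and each sequence read along the strand of its gene:
Nfkbia, chr12:55492657-55492686, minus strand: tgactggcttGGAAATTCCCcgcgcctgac
Nfkbie, chr17:45555584-45555613, plus strand: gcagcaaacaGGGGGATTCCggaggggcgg
Bcl3, chr7:19822734-19822763, minus strand: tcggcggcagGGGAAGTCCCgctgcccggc
Tnfaip3, first place, chr10:19015516-19015545, minus strand: gactcacgcgGGGACACCCCggggcgggac
Tnfaip3, second place, chr10:19015403-19015432, minus strand: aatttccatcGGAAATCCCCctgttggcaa
The Nfkbia match begins 29 bases before the gene start, the Nfkbie match 106 bases before it, the Tnfaip3 matches 125 and 12 bases before it, and the Bcl3 match 2 bases after it. A match of letters is a description and was not measured as binding.

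Library depth overlapped between groups, and aged injury replicates 1 and 2 were the deepest libraries. Whole reads recovered from the steps of the FPKM values (fragments scaled by gene length and by the mapped reads of the library) came to 12930000 to 18870000 per library. The tissue label matched the markers: 9 sensory neuron genes summed to 3371 to 4205 FPKM and 6 Schwann cell genes to 1545 to 3077 FPKM. The 7 markers of injured neurons, Atf3 and Sprr1a among them, all rose in aged injury over aged sham. They summed to 433 to 604 FPKM in aged injury and to 119 to 242 FPKM in aged sham, where replicate 1 was highest. Y-linked genes stood at 93.0 to 105.7% of the young mean in the young pools, at 69.7% in aged sham replicate 1 and at 0% in the other aged pools. The young pools therefore held male RNA, aged sham replicate 1 held RNA of both sexes, and the other aged pools held female RNA. Age and sex cannot be told apart in any comparison with young sham. Sex was also uneven between aged injury and aged sham. Aged sham replicate 2 and aged injury replicate 2 stood apart in T cell markers. They were also highest in B and plasma cell markers, though aged injury replicate 3, at 53.1 FPKM, was close to aged sham replicate 2. Their 8 T cell genes summed to 36.5 and 47.8 FPKM, against 1.70 to 12.4 FPKM in the other libraries, and their 7 B and plasma cell genes to 59.8 and 144 FPKM, against 2.42 to 53.1 FPKM.

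Mean levels of all 10 genes were lowest in young sham, and those of 8 of 10 were highest in aged injury, mostly by modest amounts. The summed level of the 10 genes was 49.7 to 55.6 FPKM in young sham, 60.8 to 69.6 FPKM in aged sham and 73.1 to 84.8 FPKM in aged injury. Aged sham over young sham, 1 of 10 genes rose (Tnfrsf1b), against 2.53% of all tested genes higher, and 0 fell, against 1.49% lower. Aged injury over aged sham, 1 of 10 rose (Bcl3), against 2.45% higher, and 0 fell, against 1.65% lower. Aged injury over young sham, 5 of 10 rose (Tnfrsf1a, Tnfrsf1b, Rela, Bcl3 and Tnfaip3), against 8.2% higher, and 0 fell, against 4.89% lower. Calls are adjusted p-values under 0.05 in limma's moderated test, fitted on log2(FPKM + 0.1) over all 9 libraries and adjusted over all genes tested by the Benjamini-Hochberg method. The pseudocount of 0.1 understates changes of low genes. With the Y-linked level as a covariate, 0 of the 10 genes were called in each comparison. This level followed age except in aged sham replicate 1, at 69.7% of the young mean, so the fit cannot separate sex from age. The adjustment rests mainly on that library. In aged injury over young sham the log2 change with this covariate was 0.50 for Rela (SE 0.15), 0.99 for Bcl3 (SE 0.41), 0.49 for Tnfrsf1a (SE 0.20), 1.23 for Tnfrsf1b (SE 0.35) and 0.26 for Tnfaip3 (SE 0.42), with larger errors than without it. The comparisons share libraries: the first and second both use aged sham, the first and the last both use young sham, and the last and second both use aged injury.

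**Figure D1:**
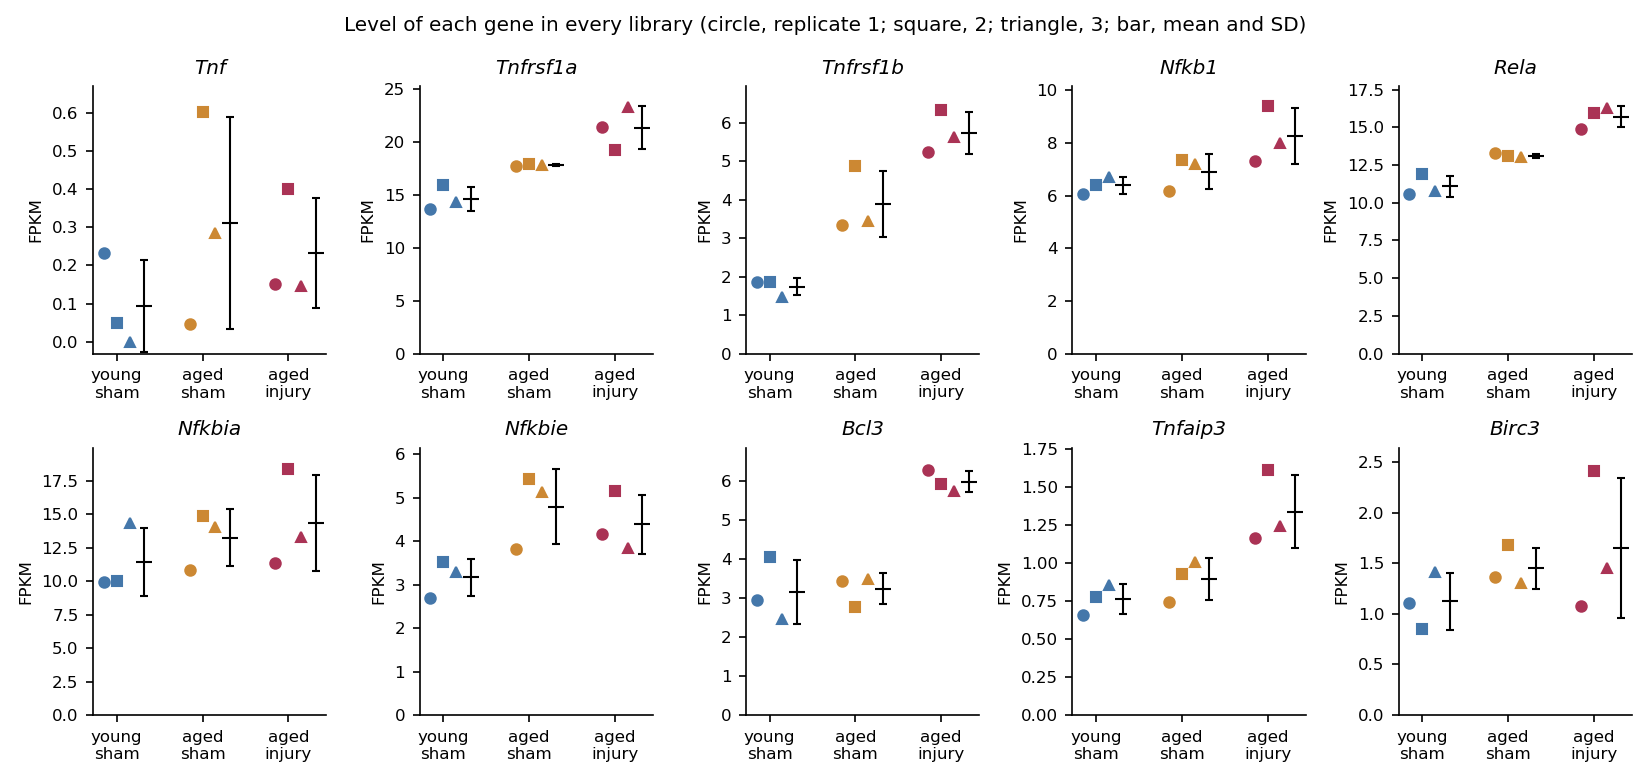
Level of each of the 10 genes in every library, in FPKM, by group, with circles for replicate 1, squares for replicate 2 and triangles for replicate 3; bars give the mean and SD. Tnfrsf1a, Tnfrsf1b and Rela form 3 steps that do not overlap, Bcl3 stands apart in aged injury, and Tnf lies between 0 and 0.602 FPKM.

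The same order appeared in the size of the changes. The median log2 change of the 10 genes was 0.27 in aged over young sham, where the median of all tested genes was 0.05. It was 0.25 in aged injury over aged sham, where that of all genes was -0.01, and 0.52 in aged injury over young sham, where that of all genes was 0.02. All 10 genes had a positive change in aged over young sham and in aged injury over young sham, and 8 of 10 in aged injury over aged sham. Counted by whether every library of one group lay above every library of the other, 4 of 10 genes were higher in aged than in young sham, against 17.7% of all tested genes. By that count 5 of 10 were higher in aged injury than in aged sham, against 11.7%, and 7 of 10 were higher in aged injury than in young sham, against 19.9%. The share of all genes called higher depended on the scaling. Calls numbered 445 higher and 262 lower in aged over young sham, but 278 and 535 after the library medians were set equal and 388 and 509 after quantile normalization. For aged injury over aged sham it was 432 higher and 291 lower, but 283 and 292 with equal medians. Quantile normalization changed that comparison little, with 425 higher and 294 lower. For aged injury over young sham it was 1444 higher and 860 lower, but 1028 and 1674 with equal medians and 1168 and 1241 with quantile normalization. The changes called for Tnfrsf1a, Tnfrsf1b, Rela, Bcl3 and Tnfaip3 stayed positive under both scalings, although Tnfaip3 was not called in aged injury over young sham after quantile normalization.

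**Figure D2:**
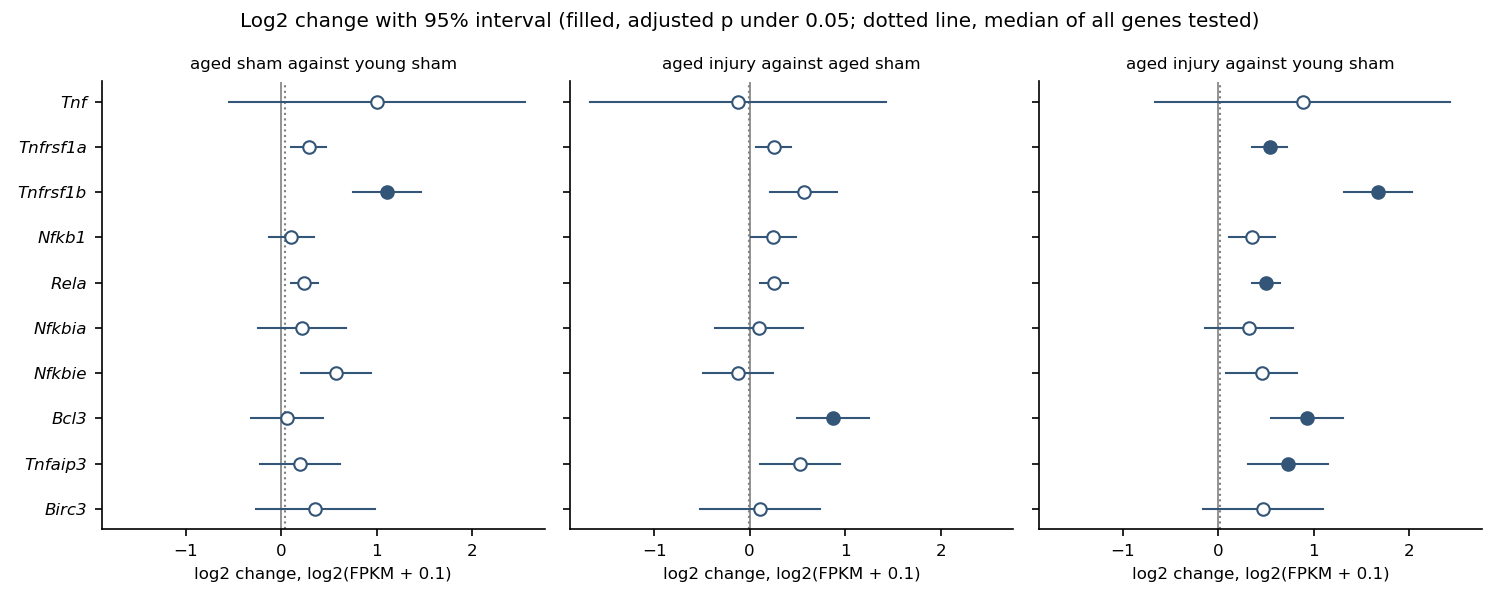
Log2 change of each gene on the log2(FPKM + 0.1) scale with its 95% interval in the 3 comparisons; filled points passed an adjusted p under 0.05 and the dotted line is the median change of all genes tested. Tnfrsf1b is filled on the left, Bcl3 in the middle and 5 genes on the right, and the interval of Tnf is the widest in each.

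Tnf itself, the ligand, was close to the limit of these libraries. It was at 0.231, 0.0491 and 0 FPKM in young sham, at 0.0474, 0.602 and 0.284 FPKM in aged sham, and the aged injury libraries were at 0.151, 0.401 and 0.147 FPKM. These values correspond to 5, 1 and 0 reads, to 1, 11 and 6 reads and to 4, 9 and 3 reads. The groups overlapped, and the highest library of each aged group was replicate 2, one of the pair rich in lymphocyte markers. A count of 0 in young sham replicate 3 allows up to 0.164 FPKM (3 reads, counting error only). No comparison called Tnf. The limma adjusted p-values were 0.38 in aged over young sham, 0.95 in aged injury over aged sham and 0.44 in aged injury over young sham. Reads were few and libraries of the same group differed, and the part of depth was not tested.

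Tnfrsf1b, which encodes TNFR2, the receptor without a death domain, had the largest called change of the 10 genes in aged over young sham and in aged injury over young sham. Its level was 1.87, 1.85 and 1.48 FPKM in young sham, 3.36, 4.88 and 3.44 FPKM in aged sham and 5.25, 6.32 and 5.63 FPKM in aged injury. The 3 groups did not overlap, and replicate 2 was the highest library in both aged groups. The mean rose from 1.73 ± 0.221 FPKM (SD, n = 3) in young sham to 3.89 ± 0.859 FPKM (SD, n = 3) in aged sham. That is a log2 change of 1.11 (SE 0.16), or 2.16-fold, with a limma adjusted p of 0.017. In aged injury the mean was 5.73 ± 0.544 FPKM (SD, n = 3), a log2 change of 0.56 (SE 0.16) over aged sham that was not called (limma adjusted p 0.085). Over young sham it was 1.67 (SE 0.16), or 3.19-fold, with a limma adjusted p of 0.0007.

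The age call of Tnfrsf1b was sensitive to single libraries. It was lost without young sham replicate 1 (limma adjusted p 0.070), without replicate 3 of the same group (0.073), and when replicate 2 (0.0501) or replicate 3 (0.063) of aged sham was left out, with log2 changes from 0.94 to 1.20 over the 9 fits that left out 1 library. It was also lost with these groups fitted alone (0.086), and with the Y-linked level as a covariate the log2 change was 0.77 and the limma adjusted p 0.40. Macrophage markers moved alongside in aged over young sham, while their sums overlapped between aged sham and aged injury. Of 10 such genes, 4 rose in aged over young sham (Cd68, Csf1r, Tyrobp and Fcer1g), with sums of 29.6 to 36.1 FPKM in young sham, 48.4 to 67.6 FPKM in aged sham and 50.4 to 62.1 FPKM in aged injury. Of 8 neutrophil markers 6 rose, with sums of 143 to 231 FPKM in young sham, 328 to 596 FPKM in aged sham and 180 to 308 FPKM in aged injury. None of these markers was at 0 in all libraries, and the part of these cells in the Tnfrsf1b result was not tested. In whole tissue, more cells of a type and more RNA per cell cannot be told apart.

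Tnfrsf1a, which encodes TNFR1, the death-domain receptor that starts the canonical response, was the most abundant of the 10 genes per length in all 3 groups. It was at 13.6, 15.9 and 14.3 FPKM in young sham, at 17.7, 18.0 and 17.8 FPKM in aged sham, and the aged injury libraries were at 21.4, 19.2 and 23.3 FPKM. Each group lay above the one before it. The log2 change was 0.29 (SE 0.08; limma adjusted p 0.072) in aged over young sham and 0.25 (SE 0.08; limma adjusted p 0.13) in aged injury over aged sham, neither of them called. Aged injury over young sham was 0.54 (SE 0.08), with a limma adjusted p of 0.005, and was called in all 9 fits that left out 1 library. The level of Tnfrsf1b for each unit of Tnfrsf1a was 0.137, 0.117 and 0.103 in young sham, 0.190, 0.272 and 0.193 in aged sham and 0.245, 0.329 and 0.242 in aged injury. This ratio of FPKM values was higher in every aged library than in any young one, and the aged sham and aged injury libraries overlapped.

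Rela, which encodes p65, the subunit that activates transcription, moved in even steps with a narrow spread. It was at 10.6, 11.9 and 10.8 FPKM in young sham, at 13.3, 13.1 and 13.0 FPKM in aged sham, and the aged injury libraries were at 14.9, 16.0 and 16.3 FPKM, and the groups did not overlap. The log2 change was 0.24 (SE 0.06; limma adjusted p 0.062) in aged over young sham and 0.26 (SE 0.06; limma adjusted p 0.059) in aged injury over aged sham, neither called. Aged injury over young sham was 0.50 (SE 0.06), with a limma adjusted p of 0.0027, and was called in all 9 fits that left out 1 library.

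Nfkb1, which encodes the p105 precursor of the p50 subunit, varied less between groups. It was at 6.06, 6.40 and 6.71 FPKM in young sham, at 6.16, 7.35 and 7.21 FPKM in aged sham, and the aged injury libraries were at 7.33, 9.42 and 8.00 FPKM. Every aged injury library was above every young one, and aged sham overlapped both. No comparison called it: the log2 change of aged injury over young sham was 0.36 (SE 0.11; limma adjusted p 0.057).

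Neither inhibitor was called in any comparison. Nfkbia encodes IkB-alpha, the inhibitor that NF-kB induces to end its own signal. It was at 9.91, 10.0 and 14.3 FPKM in young sham, at 10.8, 14.8 and 14.0 FPKM in aged sham, and the aged injury libraries were at 11.4, 18.4 and 13.3 FPKM. The groups overlapped throughout, and the log2 change was 0.22 (SE 0.20; limma adjusted p 0.51) in aged over young sham and 0.10 (SE 0.20; limma adjusted p 0.84) in aged injury over aged sham. The 95% interval of the latter ran from -0.36 to 0.56.

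Nfkbie encodes IkB-epsilon, a slower feedback inhibitor. It was at 2.69, 3.52 and 3.29 FPKM in young sham, at 3.82, 5.44 and 5.13 FPKM in aged sham, and the aged injury libraries were at 4.17, 5.15 and 3.84 FPKM. All aged libraries lay above all young ones, while aged sham and aged injury overlapped. The log2 change was 0.58 (SE 0.16; limma adjusted p 0.072) in aged over young sham and -0.12 (SE 0.16; limma adjusted p 0.74) in aged injury over aged sham, neither called.

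Bcl3 was the member called between injured and sham ganglia of aged mice. It encodes an atypical IkB protein that works in the nucleus with p50 and p52 homodimers. Its level was 2.96, 4.05 and 2.45 FPKM in young sham, 3.44, 2.78 and 3.50 FPKM in aged sham and 6.28, 5.93 and 5.74 FPKM in aged injury. All injured libraries lay above all sham libraries of either age, and the young and aged sham libraries overlapped. The mean was 3.24 ± 0.401 FPKM (SD, n = 3) in aged sham and 5.98 ± 0.272 FPKM (SD, n = 3) in aged injury, a log2 change of 0.87 (SE 0.17), or 1.83-fold, with a limma adjusted p of 0.024. Over young sham, at 3.15 ± 0.815 FPKM (SD, n = 3), the log2 change was 0.93 (SE 0.17), with a limma adjusted p of 0.0096. Between aged and young sham it was 0.06 (SE 0.17; limma adjusted p 0.86).

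The size of the Bcl3 change held better than its call. Over the 9 fits that left out 1 library, the log2 change in aged injury over aged sham ran from 0.77 to 0.93. The call was kept when replicate 2 or 3 of young sham was left out. It was lost without replicate 1 of young sham (limma adjusted p 0.053), with aged sham reduced by replicate 1 (0.0504), replicate 2 (0.088) or replicate 3 (0.072), and with aged injury reduced by replicate 1 (0.11), replicate 2 (0.076) or replicate 3 (0.090). With the Y-linked level as a covariate it was 0.88 (limma adjusted p 0.053). Without both libraries rich in lymphocyte markers the log2 change was 0.77 and the limma adjusted p 0.19. Of 10 macrophage markers 1 rose beside Bcl3 in aged injury over aged sham (Mrc1), and of 8 neutrophil markers 3 fell (Camp, Ngp and Ltf). All 7 injured neuron markers rose in the same comparison, as did the satellite glia marker Glul (1 of 7), while the endothelial marker Cldn5 (1 of 7) and the sensory neuron marker Isl1 (1 of 9) fell. The part of those cells was not tested. Exons of Bcl3 share 161 bases with the antisense gene Gm16175, whose reads cannot be told apart without strand. Gm16175 was at 0.361 and 0.313 FPKM in aged sham replicates 2 and 3. It was at 0 FPKM in every other library, with all 3 aged injury libraries among them.

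Tnfaip3 and Birc3 are both induced by NF-kB, and act after the receptor. Tnfaip3 encodes A20, a ubiquitin-editing enzyme that shuts the pathway off. It was at 0.661, 0.779 and 0.855 FPKM in young sham, at 0.742, 0.930 and 1.01 FPKM in aged sham, and the aged injury libraries were at 1.17, 1.62 and 1.24 FPKM. The injured libraries lay above all sham libraries, which overlapped with each other. The log2 change of aged injury over aged sham, 0.53 (SE 0.19; limma adjusted p 0.15), was not called. Over young sham it was 0.73 (SE 0.19; limma adjusted p 0.034), and this call was kept in 3 of the 9 fits that left out 1 library. It was kept without any 1 aged sham library and lost without any 1 young sham or aged injury library, where the limma adjusted p reached 0.11.

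Birc3 encodes cIAP2, a ubiquitin ligase of the receptor complex that restrains cell death. It was at 1.11, 0.851 and 1.41 FPKM in young sham, at 1.36, 1.68 and 1.30 FPKM in aged sham, and the aged injury libraries were at 1.08, 2.42 and 1.46 FPKM. All groups overlapped, aged injury replicate 2 was the highest library, and no comparison called it. The log2 change of aged injury over aged sham was 0.11 (SE 0.28; limma adjusted p 0.87).

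Compared per length, the order of the genes differed between groups. In young sham, Tnfrsf1a (mean 14.6 FPKM), Nfkbia (11.4 FPKM) and Rela (11.1 FPKM) came first, and the libraries of Nfkbia overlapped both others. Nfkb1 (6.39 FPKM) followed apart from its neighbours, then Nfkbie (3.17 FPKM) and Bcl3 (3.15 FPKM), which overlapped. Tnfrsf1b (1.73 FPKM), Birc3 (1.12 FPKM), Tnfaip3 (0.765 FPKM) and Tnf (0.0935 FPKM) came last, with Birc3 and Tnfaip3 overlapping. In aged injury the order was Tnfrsf1a (21.3 FPKM), Rela (15.7 FPKM) and Nfkbia (14.3 FPKM), with the last pair overlapping, then Nfkb1 (8.25 FPKM). Bcl3 (5.98 FPKM) and Tnfrsf1b (5.73 FPKM) overlapped and both lay above Nfkbie (4.39 FPKM) in every library, followed by Birc3 (1.65 FPKM) and Tnfaip3 (1.34 FPKM), which overlapped, and Tnf (0.233 FPKM).

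Other genes of the pathway were read from 6 lists with 60 genes, of which 56 were tested. In aged over young sham 3 of the 56 rose and 0 fell, in aged injury over aged sham 3 rose and 1 fell, and in aged injury over young sham 10 rose and 1 fell. The shares of all tested genes called higher in these comparisons were, as above, 2.53%, 2.45% and 8.2%, so that the first and second counts are within a few genes of those shares. The median log2 change of the 56 genes was 0.21, 0.08 and 0.25 in these comparisons, and that of all tested genes was 0.05, -0.01 and 0.02. None of 11 adaptors next to the receptors was called in either comparison with aged sham. Traf3, an adaptor that restrains the alternative NF-kB pathway, fell in aged injury against young sham (log2 change -0.27, limma adjusted p 0.037).

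Of 10 genes of the kinase and ubiquitin complexes, Rbck1, a subunit of the linear ubiquitin ligase, rose in aged over young sham. It was at 12.6, 14.7 and 12.6 FPKM in young sham and at 16.5, 16.7 and 16.5 FPKM in aged sham, without overlap (log2 change 0.32, limma adjusted p 0.041). Tab1, a partner of the kinase TAK1, fell in aged injury against aged sham. It measured 6.997, 7.22 and 7.58 FPKM in aged sham, and the aged injury libraries were at 5.13, 5.53 and 5.66 FPKM, without overlap (log2 change -0.41, limma adjusted p 0.025).

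Of 6 other Rel and IkB genes, Nfkb2, the p100 precursor of the alternative pathway, rose in aged injury over young sham (log2 change 0.84, limma adjusted p 0.024). Of 6 tested negative regulators, Tnip1 and Tnip2, which encode A20-binding proteins, rose in that comparison (log2 changes 0.30 and 0.84, limma adjusted p 0.020 and 0.030). No gene of either list was called in the comparisons with aged sham.

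Of 15 tested genes that NF-kB can induce, Lcn2 and Mmp9 rose in aged over young sham. Lcn2, an iron-carrier-binding protein of neutrophil granules and inflamed tissue, was at 2.44, 3.11 and 3.27 FPKM in young sham and at 7.63, 7.44 and 10.4 FPKM in aged sham (log2 change 1.49, limma adjusted p 0.033). Mmp9, a matrix protease also stored by neutrophils, was at 1.22, 1.25 and 1.47 FPKM in young sham and at 2.33, 3.19 and 4.19 FPKM in aged sham (log2 change 1.20, limma adjusted p 0.031). Both had the same direction as the neutrophil markers above, and the part of neutrophils was not tested.

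Il6, a cytokine and classical NF-kB target, had the largest called change of these lists in aged injury over aged sham. It measured 0.858, 0.907 and 0.786 FPKM in aged sham, and the aged injury libraries were at 2.68, 2.55 and 4.42 FPKM, without overlap (log2 change 1.76, or 3.39-fold, limma adjusted p 0.0089). This call was kept in all 9 fits that left out 1 library. In aged injury over young sham, Il6 (log2 change 2.02), Ier3, an early response gene (0.74), the chemokine Ccl5 (2.84) and the adhesion molecule Icam1 (1.30) rose, with limma adjusted p-values of 0.0023, 0.0061, 0.039 and 0.049. Ccl5 was highest in the libraries rich in lymphocyte markers, at 6.35 FPKM in aged sham replicate 2 and 9.88 FPKM in aged injury replicate 2.

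Of 8 genes of other receptors that feed the pathway, Il1r1 and Myd88 rose in aged injury over aged sham. Il1r1, the interleukin-1 receptor, measured 2.92, 3.01 and 2.84 FPKM in aged sham, and the aged injury libraries were at 4.31, 5.02 and 5.83 FPKM (log2 change 0.76, limma adjusted p 0.014). Myd88, the adaptor shared by interleukin-1 and Toll-like receptors, had a log2 change of 0.50 (limma adjusted p 0.041), a call kept in 1 of the 9 fits that left out 1 library. In aged injury over young sham both rose (log2 changes 0.91 and 0.77, limma adjusted p 0.0035 and 0.0041), as did the Toll-like receptor Tlr2 (0.92, limma adjusted p 0.040).

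Among these pathway genes, the calls that stood in all 9 fits leaving out 1 library were Il6 in both injury comparisons, and Ier3, Il1r1 and Myd88 in aged injury over young sham. In aged over young sham, Mmp9 was called in 4 of those 9 fits, Lcn2 in 3 and Rbck1 in 1, with limma adjusted p-values up to 0.12, 0.13 and 0.14. In aged injury against aged sham, Il1r1 was called in 5 and Tab1 in 3 of the 9. Against young sham, Nfkb2 and Tnip1 were called in 5, Traf3 in 4, Tnip2 and Ccl5 in 3, and Icam1 and Tlr2 in 1 of the 9.

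**Figure D3:**
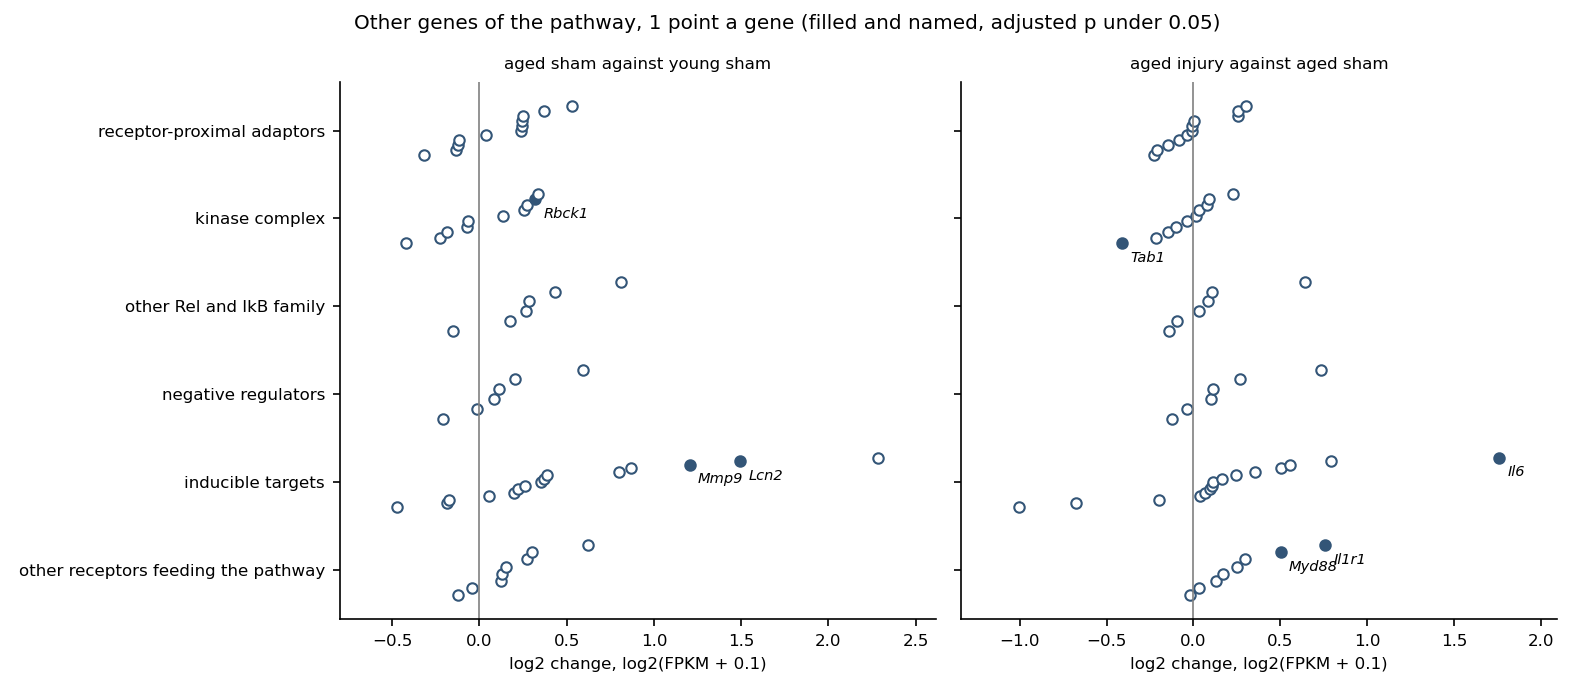
Log2 change on the log2(FPKM + 0.1) scale of each tested gene of the 6 pathway lists, in aged over young sham and in aged injury over aged sham; filled points passed an adjusted p under 0.05. Rbck1, Lcn2 and Mmp9 are filled on the left, and Il6, Il1r1, Myd88 and Tab1 on the right.

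The genes whose level most resembled that of each of the 10 over the 9 libraries were picked by Pearson correlation of log2(FPKM + 0.1) among 12049 genes. These values include the group differences and are given as a description. Tnfrsf1a was most like Taldo1 (r 0.995), Tmbim1 and Slc3a2 (both 0.982). Rela was most like Lrg1 (0.985), Il4ra (0.982) and S1pr2 (0.979). Tnfrsf1b was most like Cyp4b1 (0.977), Helz2 (0.976) and the Fc receptor gene Fcgr2b (0.975).

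Nfkb1 and Tnfaip3 were near neighbours of each other (r 0.974). Nfkb1 was also close to Mcmbp (0.975) and Zfp869 (0.972), and Tnfaip3 to Mcmbp and Parp14 (both 0.952). Nfkbie was most like Pla2g15 (0.974) and the myeloid genes Ncf1 (0.972) and Igsf6 (0.971), and Bcl3 was most like Rnf4 (0.974), Lins1 (0.972) and Stat2 (0.969). Nfkbia was most like the immunoglobulin segment Igkj3 (0.953), Tent5c and Psme2 (both 0.939). Birc3 was most like Mybl1 (0.961) and B4galt7 (0.941), and Tnf, at its low counts, like Pml (0.945), Sel1l (0.942) and Dus2 (0.934).

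Within the aged groups the 10 genes also differed from library to library. The mean log2 level above the young sham mean was 0.18, 0.61 and 0.46 in aged sham replicates 1, 2 and 3, and 0.52, 0.92 and 0.61 in aged injury replicates 1, 2 and 3. Replicate 2 was highest and replicate 1 lowest in both groups, and the same libraries were highest and lowest in the summed T cell, B and plasma cell and macrophage markers. The macrophage sums were 48.4, 67.6 and 62.3 FPKM in aged sham replicates 1, 2 and 3, and 50.4, 62.1 and 59.8 FPKM in those of aged injury. Neutrophil sums had another order, at 328, 487 and 596 FPKM in aged sham and 308, 180 and 188 FPKM in aged injury. Injured neuron sums were highest in replicate 1 of both groups, at 242, 120 and 119 FPKM and at 604, 433 and 586 FPKM. The part of these cells in the differences was not tested. Without aged sham replicate 2 and aged injury replicate 2, 0 of 10 genes were called in both comparisons with aged sham and 3 of 10 (Rela, Tnfrsf1a and Tnfrsf1b) in aged injury over young sham. The log2 change of Bcl3 over young sham was then 0.94 (limma adjusted p 0.051), against 0.93 with all libraries, and that of Tnfrsf1b in aged over young sham was 0.94, against 1.11.

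**Figure D4:**
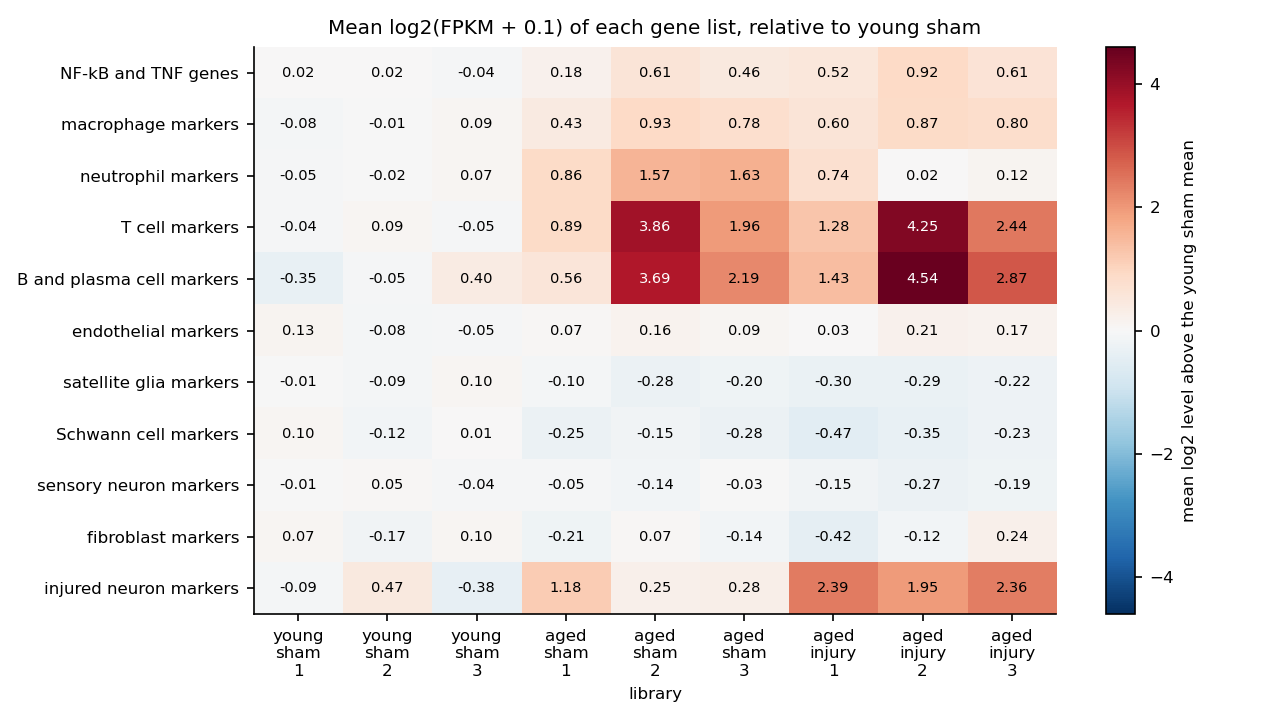
Mean log2(FPKM + 0.1) of the 10 genes and of each marker list in every library, relative to the young sham mean, as numbers and colours. The 10 genes reach 0.92 in aged injury replicate 2, the library that also has the highest T cell and B and plasma cell values, while the injured neuron markers are highest in the aged injury libraries.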

How the data were processed

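RNA was sequenced from 9 libraries as paired 100-cycle reads. The authors deposited 1 table of FPKM values for each gene and library. Per the submitters' processing notes, the tools were TopHat2 2.0.12, Bowtie2 2.2.3 and HTSeq 0.6.0 on mm10, with no roles given. Genes were matched to GENCODE M21. The limma 3.58.1 test, run in R 4.3.3 and checked on simulated data, took log2(FPKM + 0.1) of all genes whose mean reached 0.2 FPKM. FPKM values were whole multiples of a step for 99.9% of tested genes (tolerance 0.001), which gave relative depth and reads per gene. Those reads rest on annotated lengths and served Tnf and a voom alternative. The reads cover counting error only. Of the pathway lists, each gene called in any comparison is named, up to 5 for each list and comparison. Members and lists were chosen with earlier results of these data known. Other settings of the filter, pseudocount, scaling, covariates and libraries were tried. Same-numbered aged sham and aged injury libraries deviated together with correlations of 0.245, 0.27 and 0.062. Replicates 1 and 2 exceeded the limit of 0.1 for pairing and replicate 3 did not. The main fit did not take numbers as pairs. With a replicate block, Bcl3 was not called in aged injury over aged sham (limma adjusted p 0.066). One of the genes resembling a member is not reported here.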

Additional observations from a re-analysis of the deposited data

How the results depend on the processing

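Counts of the 10 genes called moved as follows. In aged over young sham, where 1 was called, it was 0 with these groups fitted alone, 4 with array weights, 0 with the Y-linked covariate and 0 without the libraries rich in lymphocyte markers (chosen after seeing the data), and 0 to 3 leaving out 1 library. In aged injury over aged sham, where 1 was called, it was 2 with a filter of 1 FPKM, with quantile normalization and with voom, 0 with a replicate block, with the Y-linked covariate and without the lymphocyte-rich libraries, and 0 to 2 leaving out 1 library. In aged injury over young sham, where 5 were called, it was 0 with the Y-linked covariate, 3 without the lymphocyte-rich libraries, 7 with array weights, 6 with the replicate block and with voom, and 4 to 6 leaving out 1 library. The log2 changes of Rela and Bcl3 there were 0.50 and 0.99 with the covariate, and that of Bcl3 was 0.94 without those libraries.

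Of all genes, 707 were called in aged over young sham, against 239 with no filter, 31 with these groups alone, 2020 with array weights, 101 with the replicate block, 5 with the Y-linked covariate, 28 without the lymphocyte-rich libraries and 23 to 1536 leaving out 1 library. For aged injury over aged sham, 723 became 302 with these groups alone, 273 with the replicate block, 43 without the lymphocyte-rich libraries and 151 to 740 leaving out 1 library. For aged injury over young sham, 2304 became 3755 with array weights, 17 with the Y-linked covariate, 1024 without the lymphocyte-rich libraries and 869 to 2365 leaving out 1 library.

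Signs turned for changes that were not called. Those with the Y-linked covariate rest mainly on aged sham replicate 1 and are not estimates freed of sex. With the Y-linked covariate, aged over young sham gave -0.14 for Nfkb1, -0.15 for Nfkbia, -0.99 for Tnf and -0.16 for Tnfaip3; aged injury over young sham gave -0.17 for Nfkbia, -0.22 for Nfkbie and -1.71 for Tnf; and aged injury over aged sham gave -0.014 for Nfkbia. Without the lymphocyte-rich libraries, aged injury over aged sham gave -0.084 for Birc3, -0.0051 for Nfkbia and 0.065 for Tnf. For Tnf it was 0.0016 with a pseudocount of 0.01, and quantile normalization gave Bcl3 -0.0023 in aged over young sham. Leaving out 1 library, aged injury over aged sham ran from -0.19 to 0.36 for Birc3, from -0.093 to 0.25 for Nfkbia and from -0.72 to 0.40 for Tnf, and Bcl3 in aged over young sham from -0.10 to 0.25. With the replicate block the limma adjusted p of Bcl3 in aged injury over aged sham was 0.066. The causes were not tested. Every aged sham and aged injury library correlated best with its own number, a hint from the data and not the design. For aged injury replicate 3 the margin was small, 0.062 against 0.041 with aged sham replicate 1. Deviations from a group mean depend on each other, so these correlations are not separate pieces of evidence.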
